A study of Mus musculus with 12 samples.

Results

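TCRBJ02-02, TCRBJ02-03 and TCRBJ02-04 are neighbouring joining (J) genes of the mouse T-cell receptor beta locus, and their use was followed in 12 CD8 T-cell libraries. Every rearrangement to which the sequencing platform gave one of these J names was included. These made up 60227 of the 288925 rearrangements in the 12 libraries, with a sequence counted once in each library that held it, of which 16695 carried TCRBJ02-02, 23212 TCRBJ02-03 and 20320 TCRBJ02-04. Of these, 11572, 16280 and 14099 were productive, meaning in frame and without a stop codon. Another 4951, 6655 and 5940 were out of frame, and 172, 277 and 281 held a stop codon.

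All libraries came from female C57BL/6 mice bearing MC38 tumors, a colon adenocarcinoma line of the mouse, and every mouse received anti-CTLA-4 Ab and also anti-PD-L1 Ab, so that no untreated group was compared here. Splenic CD8 T cells were sorted about 2 weeks after the start of therapy into the populations written CD27loCX3CR1lo, CD27hiCX3CR1lo and CX3CR1hi, here called CD27lo CX3CR1-, CD27hi CX3CR1- and CX3CR1+, and CD8 TILs (tumor-infiltrating lymphocytes) were purified from the tumors with CD8a beads. Each of the 4 groups had 3 libraries, one from each of 3 experiments, here A, B and C, and each library pooled mice that were age matched at the start. The labels gave no age. CX3CR1 is a chemokine receptor carried by differentiated effector CD8 T cells, and CD27 is a costimulatory receptor that is lost with differentiation. Because genomic rearrangements hold no transcripts, the CD8, CD27 and CX3CR1 phenotypes could not be checked against markers.

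A T-cell receptor beta chain is assembled in the thymus by joining a D gene to a J gene and then a V gene to the DJ unit, with trimming of the ends and addition of non-templated (N) bases at the junctions. The junction encodes the third complementarity-determining region (CDR3), the part of the chain that contacts peptide, and the J gene supplies its final stretch. A rearrangement that lands out of frame makes no protein and is carried along by a cell whose other allele is productive, so out-of-frame rearrangements are commonly taken as a record of recombination without selection on the receptor. The share of unique rearrangements counts each distinct sequence once and reflects how many clones used a gene. The share of templates weights each sequence by the estimated number of genome copies, so that clone size enters it. As given below, it also differed from the unique share where large clones were rare.

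On chromosome 6 of GRCm38 (mm10), the J-segment exons lie at chr6:41542957-41543007 for Trbj2-2, chr6:41543223-41543271 for Trbj2-3 and chr6:41543362-41543410 for Trbj2-4 in RefSeq. Trbj2-2 is separated from Trbj2-1 by 153 bases and from Trbj2-3 by 215 bases, Trbj2-3 from Trbj2-4 by 90 bases, and Trbj2-4 from Trbj2-5 by 42 bases. The bases each gene contributed to the CDR3 are printed here because they distinguish its rearrangements. They were read from 4205, 11071 and 7821 untrimmed rearrangements, all of which held the same letters. The read stops 1 codon before the end of the CDR3, and capitals mark the 4 bases shared by all 3 genes when aligned at the last base.
TCRBJ02-02: caAacaccgggcagcTcTAc
TCRBJ02-03: AgtgcagaaacgcTgTAt
TCRBJ02-04: AgtcaaaacacctTgTAc
TCRBJ02-03 and TCRBJ02-04 had 11 of their 18 last bases in common, TCRBJ02-02 and TCRBJ02-03 had 8 of 18, and TCRBJ02-02 and TCRBJ02-04 had 5 of 18. The closest match of TCRBJ02-04 was its other neighbour TCRBJ02-05, with 13 of 18 bases.

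Depth differed between the groups. CD27hi CX3CR1- libraries held 38014 to 54639 productive rearrangements, CD27lo CX3CR1- libraries 12910 to 15489, CX3CR1+ libraries 5591 to 11455 and CD8 TIL libraries 1359 to 2173. Each of the 3 J genes thus rested on only 77 to 155 productive rearrangements in a TIL library. Productive templates ranged from 5893 to 113660 per library. Libraries of the same experiment shared a median of 8.63% of the rearrangements of the smaller library, against 1.78% for libraries of different experiments. The same experiment was therefore kept together in every permutation.

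Among the 12 J genes with a mean share of at least 1%, TCRBJ02-03 ranked 5th at 7.84% ± 0.69 (SD, n = 12 libraries) of productive unique rearrangements, TCRBJ02-04 ranked 6th at 7.08% ± 0.49 and TCRBJ02-02 ranked 9th at 5.59% ± 0.39. The most used gene, TCRBJ02-07, had 21.6%. Over single libraries TCRBJ02-03 spanned 6.69% to 8.69% and TCRBJ02-04 spanned 6.32% to 7.81%, so that these neighbours in the order overlapped. TCRBJ02-02 spanned 5.07% to 6.48% and stayed below TCRBJ02-03 in each of them.

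TCRBJ02-02 accounted for 5.35%, 5.07% and 5.31% of productive unique rearrangements in CD27lo CX3CR1- cells, given here and below in the order A, B and C of the experiments. The CD27hi CX3CR1- libraries had 5.73%, 5.61% and 5.76%, CX3CR1+ cells 5.66%, 5.42% and 5.97%, and TILs 5.67%, 5.11% and 6.48%. All 3 CD27lo CX3CR1- values were below all 3 CD27hi CX3CR1- values, and the other groups overlapped. TCRBJ02-07 was also lower in CD27lo cells without overlap (20.7% to 21.0% against 22.0% to 22.8%). For a TIL value the counting error alone was wide. The 95% Wilson interval in experiment B ran from 4.12% to 6.32%.

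TCRBJ02-03 was used in 8.36%, 8.61% and 8.20% of CD27lo CX3CR1- rearrangements and in 8.05%, 7.74% and 7.96% of CD27hi CX3CR1- rearrangements. In CX3CR1+ cells its share was 7.30%, 6.69% and 7.13%. All 3 CX3CR1+ libraries were below all 6 CX3CR1- libraries. TCRBJ02-01 was also separated, in the other direction (13.3% to 14.0% in CX3CR1+ against 12.1% to 12.5% in CX3CR1- libraries), whereas TCRBJ02-05 and TCRBJ02-07 overlapped. In CD8 TILs the share was 8.69%, 8.47% and 6.85%, so that experiment C stood apart from the other two.

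TCRBJ02-04 was used in 7.55%, 7.31% and 7.61% of CD27lo CX3CR1- rearrangements and in 6.85%, 6.90% and 6.32% of CD27hi CX3CR1- rearrangements. The CX3CR1+ libraries had 7.53%, 6.78% and 6.39%, and the TIL libraries 7.81%, 6.72% and 7.17%. The CD27lo CX3CR1- values exceeded the CD27hi CX3CR1- values without overlap, whereas CX3CR1+ cells and TILs spanned both. TCRBJ02-05 was likewise higher in CD27lo cells without overlap (11.1% to 11.4% against 9.99% to 10.4%), and TCRBJ02-01 overlapped.

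**Figure D1:**
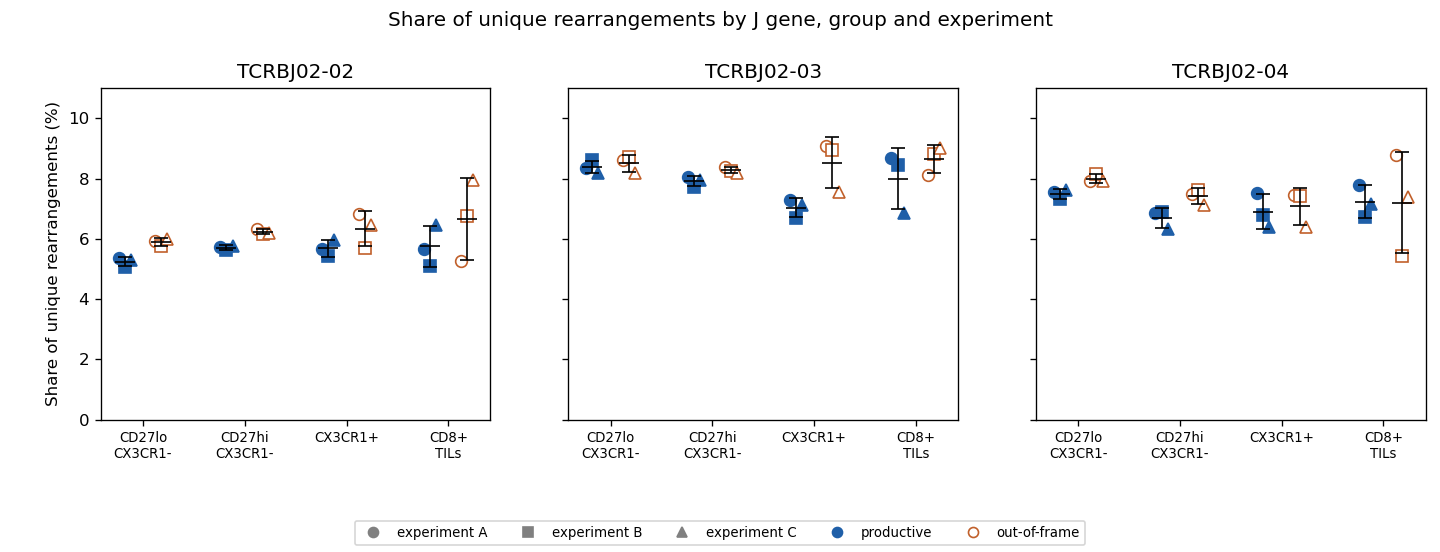
Share of productive and out-of-frame unique rearrangements (%, y axis) that used each of the 3 J genes, by group (x axis), with one point per library, the experiment as its shape, and the mean and SD of the 3 libraries as bars. For TCRBJ02-03 the productive CX3CR1+ values, between 6.69% and 7.30%, lie below all CX3CR1- values, which start at 7.74%.

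To ask whether CX3CR1+ cells and CD8 TILs, here called the clonal populations because they hold the large clones, differed from the CX3CR1- spleen subsets, libraries were compared by an exact two-sided permutation test within experiments, with adjustment over the 12 J genes. The TCRBJ02-03 share of CX3CR1+ cells was 1.11 percentage points lower than that of CX3CR1- cells (SD 0.32, lower in 3 of 3 experiments), with an exact p of 0.037, the smallest this design can give, and an adjusted p of 0.148. The corresponding differences were 0.21 points for TCRBJ02-02 (SD 0.20, exact p = 0.370) and -0.19 points for TCRBJ02-04 (SD 0.47, exact p = 0.593). In this contrast 25% of the 12 J genes had an exact p under 0.05. When all libraries were drawn to equal depth, the TCRBJ02-03 difference no longer had an exact p under 0.05. Its CX3CR1+ shares were then 6.56%, 6.36% and 5.65%, against 6.58% to 7.37% in the CX3CR1- libraries.

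When the rearrangement counts of all J genes were fitted with edgeR's quasi-likelihood test, TCRBJ02-03 fell in CX3CR1+ cells, with a log2 fold change of -0.21 (SE 0.04, adjusted p = 7.48e-05). By this test 33.3% of J genes were called. TCRBJ02-02 (log2 fold change 0.06, SE 0.05, adjusted p = 0.349) and TCRBJ02-04 (-0.04, SE 0.04, adjusted p = 0.465) were not called. The out-of-frame rearrangements of TCRBJ02-03 had a log2 fold change of 0.00 and were not called (adjusted p = 0.9998). No SE is given for this value, because SEs were derived from the test statistic and are unstable for a change this small. The direction of the productive difference turned when rearrangements with a single template were left out, to 2.54 points higher. This filter need not act alike on both sides. Productive TCRBJ02-03 rearrangements averaged 1.10 templates in CX3CR1- libraries and 8.26 to 14.5 in CX3CR1+ libraries, against 1.89 for TCRBJ02-07 in CX3CR1- libraries.

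For both clonal populations against the CX3CR1- subsets, the differences were 0.25 points for TCRBJ02-02 (SD 0.40), -0.63 for TCRBJ02-03 (SD 0.44) and -0.02 for TCRBJ02-04 (SD 0.43), with exact p values of 0.231, 0.130 and 0.935. Of the J genes, 16.7% had an exact p under 0.05. With a minimum of 2 templates the TCRBJ02-03 and TCRBJ02-04 differences turned to 2.91 and 3.28 points higher. In the edgeR fit TCRBJ02-03 was lower in the clonal populations (log2 fold change -0.13, SE 0.05, adjusted p = 0.0249), among 25% of J genes called. TILs differed from the 3 spleen populations by 0.21 points for TCRBJ02-02 (SD 0.54), 0.22 for TCRBJ02-03 (SD 0.98) and 0.20 for TCRBJ02-04 (SD 0.42). None of these 3 passed (exact p = 0.375, 0.688 and 0.594), against 25% of J genes, and the spread between experiments exceeded each difference.

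The non-overlapping values of the CX3CR1- subsets led to a comparison of CD27lo with CD27hi cells that was chosen after the values were seen. In the edgeR fit TCRBJ02-04 was higher in CD27lo cells (log2 fold change 0.17, SE 0.04, adjusted p = 8.17e-05), with group means of 7.49% ± 0.16 and 6.69% ± 0.32 (SD, n = 3). TCRBJ02-03 was also higher (0.08, SE 0.03, adjusted p = 0.0302), and TCRBJ02-02 was lower (-0.12, SE 0.05, adjusted p = 0.0200). In this comparison 66.7% of J genes were called, so that calls for these 3 were close to the rule among J genes. The largest change was that of TCRBJ01-01 (0.22, SE 0.03, adjusted p = 1.43e-08). With TMM normalization the TCRBJ02-03 value became -0.01. Out-of-frame rearrangements gave -0.08 (SE 0.06), 0.04 (SE 0.05) and 0.11 (SE 0.05) for TCRBJ02-02, TCRBJ02-03 and TCRBJ02-04, with adjusted p values of 0.319, 0.65 and 0.111.

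Out-of-frame rearrangements were then used as the comparison for each gene. TCRBJ02-02 made up 5.92%, 5.76% and 6.00% of out-of-frame unique rearrangements in CD27lo CX3CR1- cells and 6.32%, 6.16% and 6.20% in CD27hi CX3CR1- cells. It made up 6.84%, 5.70% and 6.47% in CX3CR1+ cells and 5.26%, 6.76% and 7.96% in TILs. Its productive share was lower than its out-of-frame share in 11 of 12 libraries. The mean difference was -0.69 points (SD 0.55), with an exact two-sided sign-flip p of 0.00146 and an adjusted p of 0.00879 over J genes. The ratio of productive to out-of-frame share was 0.897. With a minimum of 2 templates the difference was -0.31 points (exact p = 0.310).

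For TCRBJ02-03 the out-of-frame shares were 8.63%, 8.73% and 8.19% in CD27lo CX3CR1- cells and 8.39%, 8.24% and 8.20% in CD27hi CX3CR1- cells. CX3CR1+ cells had 9.08%, 8.95% and 7.57%, and TILs had 8.13%, 8.82% and 9.03%. The productive share was lower in 10 of 12 libraries by a mean of -0.66 points (SD 0.90, exact p = 0.0142, adjusted p = 0.0283). In the CX3CR1- subsets the gap averaged -0.24 points ± 0.18 (SD, n = 6), and in CX3CR1+ cells it averaged -1.49 points ± 0.94 (SD, n = 3).

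TCRBJ02-04 had out-of-frame shares of 7.94%, 8.16% and 7.91% in CD27lo CX3CR1- cells and 7.50%, 7.62% and 7.11% in CD27hi CX3CR1- cells. They were 7.45%, 7.42% and 6.38% in CX3CR1+ cells and 8.77%, 5.44% and 7.38% in TILs. Its mean difference of -0.34 points (SD 0.61, lower in 9 of 12 libraries) did not pass (exact p = 0.0811, adjusted p = 0.0932). Of the J genes 50% passed this test. The libraries of one experiment came from the same mice, and with 1 value per experiment all 3 genes were lower in 3 of 3 experiments with an exact p of 0.25, the smallest possible.

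In CX3CR1+ cells the gap between productive and out-of-frame share of TCRBJ02-03 was 1.25 points more negative than in CX3CR1- cells. The values by experiment were -1.48, -1.95 and -0.33 points. The exact p was 0.037 and the adjusted p 0.222, and 16.7% of J genes had an exact p under 0.05 here. TCRBJ02-02 (-0.06 points, exact p = 0.741) and TCRBJ02-04 (0.44 points, exact p = 0.0741) were not called.

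The V genes joined to each J gene were compared next. Over the 12 libraries TCRBJ02-02 was joined most often to TCRBV12-01 (7.49% ± 1.63 of its productive rearrangements, SD), followed by TCRBV13-02 (6.75% ± 1.74), TCRBV19-01 (6.55%), TCRBV03-01 (6.43%) and TCRBV29-01 (6.32%). TCRBJ02-03 was joined most often to TCRBV13-02 (8.50% ± 2.11), TCRBV03-01 (7.58% ± 0.84), TCRBV12-01 (6.97%), TCRBV19-01 (6.96%) and TCRBV13-03 (6.96%). TCRBJ02-04 was joined most often to TCRBV13-02 (10.1% ± 2.10), TCRBV03-01 (8.05%), TCRBV19-01 (8.05%), TCRBV12-01 (7.92%) and TCRBV16-01 (7.33%). TCRBV12-01, TCRBV13-02, TCRBV19-01 and TCRBV03-01 were among the leading 5 of each gene. They were also the most used V genes over all J genes, at 7.56%, 8.99%, 8.20% and 6.84%. TCRBV12-01 exceeded its level over all J genes with TCRBJ02-02 in 5 of 12 libraries.

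TCRBV13-02 held 8.99% of all productive rearrangements. Its share with TCRBJ02-02 lay below that level in 12 of 12 libraries, whereas its share with TCRBJ02-04 lay above it in 9 of 12. TCRBV03-01, with 6.84% over all J genes, was above that level with TCRBJ02-03 in 12 of 12 libraries and with TCRBJ02-04 in 12 of 12. TCRBV16-01 exceeded its level of 6.49% with TCRBJ02-04 in 11 of 12.

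Productive V-J pairs were compared with out-of-frame pairs by edgeR across 207 pairs. The library was the block, although libraries of one experiment came from the same mice. The SEs and p values of this fit therefore treat related libraries as independent, and no fit at the level of experiments was made. Of all pairs 79.2% were called, 91 higher and 73 lower. Among the members, 6 of 18 TCRBJ02-02 pairs were higher and 7 lower in productive rearrangements, 9 of 20 TCRBJ02-03 pairs were higher and 8 lower, and 9 of 19 TCRBJ02-04 pairs were higher and 7 lower. These shares were near the background of all pairs.

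The strongest depletion concerned TCRBV24-01, with a log2 fold change of -2.53 with TCRBJ02-03 (SE 0.12, adjusted p = 1.35e-91), as 0.139% of productive but 0.610% of out-of-frame rearrangements carried the pair. With TCRBJ02-04 the change was -2.35 (SE 0.14). TCRBV20-01 was lower with TCRBJ02-03 (-1.23, SE 0.12), TCRBV15-01 with TCRBJ02-04 (-0.97, SE 0.11) and TCRBV04-01 with TCRBJ02-02 (-0.95, SE 0.11). Pairs higher among productive rearrangements included TCRBV14-01 (0.92, SE 0.15), TCRBV12-02 (0.89, SE 0.12) and TCRBV29-01 (0.87, SE 0.13), each with TCRBJ02-02. TCRBV14-01 was higher with all 3 J genes (0.64 with TCRBJ02-03 and 0.88 with TCRBJ02-04), and TCRBV29-01 likewise (0.75 and 0.82). Over all J genes TCRBV24-01 held a mean of 1.15% of productive and 6.11% of out-of-frame rearrangements, TCRBV14-01 4.01% and 2.25%, and TCRBV29-01 5.99% and 3.36%, so that the directions were the same over all J genes.

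Between groups, few V-J pairs were called. Counts per pair were small in TILs, so a missing call does not show an equal share. No pair of TCRBJ02-02 and none of TCRBJ02-04 was called by edgeR among 20 tested for each gene. At an unadjusted p under 0.05, clonal populations against CX3CR1- cells gave 3 pairs for each of these genes, CX3CR1+ against CX3CR1- cells gave 2 and 1, and TILs against spleen gave 0 and 5. Over all J genes, 39, 28 and 27 of 236 pairs had such a p in these 3 contrasts. DESeq2 on the same counts also called 0 pairs of either gene in each contrast. TCRBJ02-03 had 4 of its 20 pairs called between clonal and CX3CR1- populations, 2 higher and 2 lower, against 5.08% of all 236 pairs. It had 1 called between CX3CR1+ and CX3CR1- cells (1.69% of all pairs) and 2 between TILs and spleen (1.69%).

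The pair TCRBV13-02/TCRBJ02-03 formed 0.863%, 0.768% and 0.898% of productive rearrangements in CD27lo CX3CR1- cells and 0.782%, 0.819% and 0.791% in CD27hi CX3CR1- cells. In CX3CR1+ cells it formed 0.546%, 0.537% and 0.481%. All CX3CR1+ values were below all CX3CR1- values. The pair fell by 0.68 on the log2 scale (SE 0.13, adjusted p = 4.06e-05 by edgeR), and the call was lost without experiment C (adjusted p = 0.0906). Its out-of-frame share in CX3CR1+ cells was 0.678%, 0.878% and 0.640%, inside the range of 0.583% to 0.847% of the CX3CR1- libraries in 2 of 3 experiments. Clonal populations together also had less of this pair (-0.68, SE 0.15, adjusted p = 0.000496).

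TCRBV12-01/TCRBJ02-03 formed 0.709%, 0.690% and 0.653% in CD27lo CX3CR1- cells and 0.766%, 0.650% and 0.775% in CD27hi CX3CR1- cells. CX3CR1+ cells had 0.448%, 0.519% and 0.587%, and TILs had 0.0736%, 0.323% and 0.324%. The order of the groups was thus the same in all 3 experiments for the CX3CR1- subsets against CX3CR1+ cells and for CX3CR1+ cells against TILs. Clonal populations were lower (-0.95, SE 0.19, adjusted p = 4.96e-05), as were TILs against spleen (-1.32, SE 0.36, adjusted p = 0.0257), where the TIL values rested on 1, 5 and 7 rearrangements. A low TCRBV12-01 share in TILs was not particular to TCRBJ02-03. Among TCRBJ02-02 rearrangements it averaged 5.31% in TILs and 7.29% to 9.31% in the spleen groups. Among TCRBJ02-04 rearrangements it averaged 4.59% in TILs and 8.82% to 9.38% in the spleen groups, although neither pair was called.

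TCRBV31-01/TCRBJ02-03 made up 0.736%, 0.259% and 0.416% of TIL rearrangements, from 10, 4 and 9 sequences. It made up 0.107% to 0.238% in the 9 spleen libraries, below every TIL library. TILs were higher by 1.34 on the log2 scale (adjusted p = 0.0269), and clonal populations by 0.71 (adjusted p = 0.0406). TCRBV17-01/TCRBJ02-03 was higher in clonal populations by 0.74 (adjusted p = 0.0374), with values of 0.350%, 0.179% and 0.376% in CX3CR1+ cells and 0.221%, 0.453% and 0.416% in TILs against 0.162% to 0.239% in CX3CR1- cells. Leaving out any experiment ended the calls in TILs and that of TCRBV17-01. With DESeq2 the adjusted p became 0.0612 for TCRBV12-01 in TILs and 0.0616 for TCRBV31-01 in clonal populations, where DESeq2 called TCRBV24-01/TCRBJ02-03 higher instead.

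**Figure D2:**
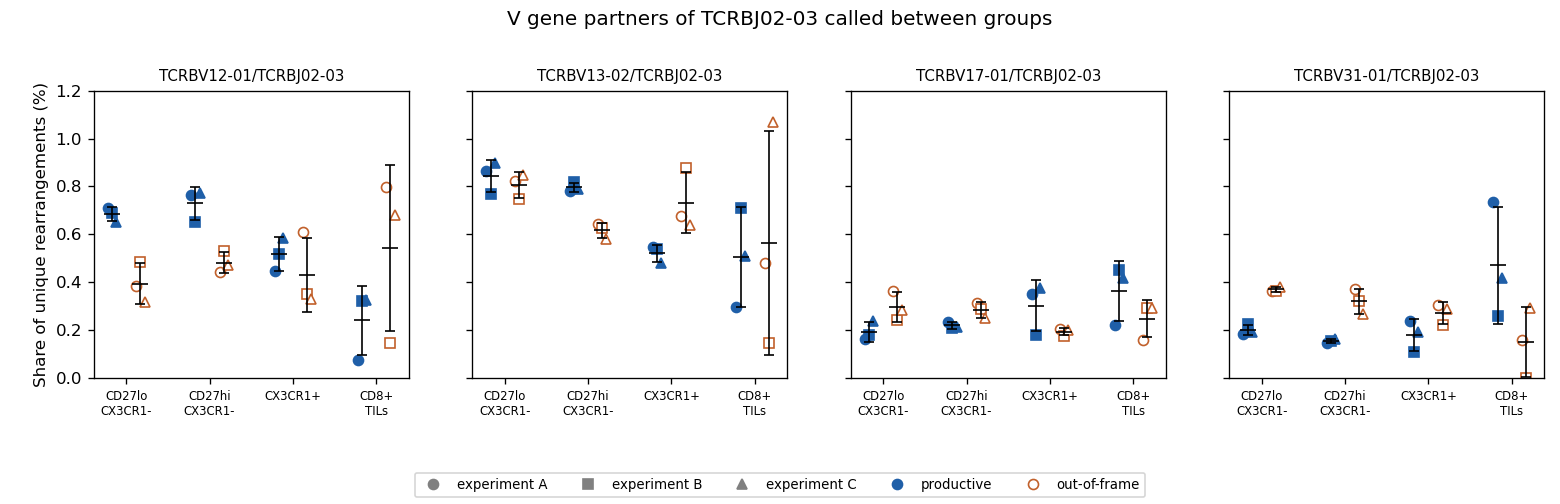
Share of unique productive rearrangements (%, y axis) made up by the V-J pairs of TCRBJ02-03 that were called between groups, beside the out-of-frame share, one point per library, by group (x axis), with the mean and SD of 3 libraries as bars. TCRBV13-02/TCRBJ02-03 lies between 0.481% and 0.546% in CX3CR1+ cells and at 0.768% or above in CX3CR1- cells.

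Junctions of the 3 genes differed in ways the naming rule did not use. The productive CDR3 was longest with TCRBJ02-02 (44.2 ± 0.5 nt, SD over 12 libraries) and TCRBJ02-03 (44.1 ± 0.18 nt) and shorter with TCRBJ02-04 (42.7 ± 0.16 nt), against 41.8 nt over all J genes. TCRBJ02-03 lost the fewest J bases, 1.36 ± 0.10 nt, and 48.6% of its productive rearrangements kept the whole J end. TCRBJ02-04 kept it in 39.0% and TCRBJ02-02 in 24.8%, against 26.9% over all J genes. The out-of-frame shares had the same order, with 44.9%, 35.5% and 28.5% for TCRBJ02-03, TCRBJ02-04 and TCRBJ02-02.

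TCRBJ02-02 was joined to the first D gene, TCRBD01-01, in 51.0% ± 3.7 of the productive rearrangements with a called D, compared with 36.3% ± 1.6 for TCRBJ02-03 and 36.7% ± 2.1 for TCRBJ02-04. It was higher than TCRBJ02-03 in 12 of 12 libraries (mean difference 14.7 points, SD 3.4) and higher than TCRBJ02-04 in 12 of 12 (14.4 points, SD 4.0). It also exceeded TCRBJ02-01 in 12 of 12 libraries (10.2 points, SD 4.6), TCRBJ02-05 in 12 of 12 (12.8 points, SD 3.4) and TCRBJ02-07 in 12 of 12 (10.7 points, SD 5.9). Out-of-frame rearrangements gave 53.9% for TCRBJ02-02, 42.6% for TCRBJ02-03 and 43.3% for TCRBJ02-04. N insertions averaged 3.39 nt, 3.79 nt and 3.59 nt for the 3 genes in productive rearrangements, and 4.21 nt, 4.28 nt and 3.96 nt in out-of-frame ones.

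Weighting by templates changed the picture. TCRBJ02-02 held 4.96%, 4.55% and 5.10% of productive templates in CD27lo CX3CR1- cells and 5.27%, 5.02% and 5.16% in CD27hi CX3CR1- cells. CX3CR1+ cells had 7.21%, 2.85% and 4.51%, and TILs 10.4%, 4.26% and 6.95%. The CX3CR1- libraries lay close together, whereas both clonal populations ran above and below them.

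TCRBJ02-03 held 6.80%, 6.71% and 6.85% of templates in CD27lo CX3CR1- cells and 6.67%, 6.43% and 6.65% in CD27hi CX3CR1- cells. CX3CR1+ cells had 8.57%, 6.06% and 10.7%, and TILs 4.63%, 7.25% and 1.94%. In experiment C its template share was thus high in CX3CR1+ cells and low in TILs. One rearrangement carried 61.0% of the TCRBJ02-03 templates of that CX3CR1+ library, and without the most abundant rearrangement of each library the share there was 4.47%.

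TCRBJ02-04 held 5.65%, 5.63% and 5.79% of templates in CD27lo CX3CR1- cells and 5.63%, 5.50% and 5.10% in CD27hi CX3CR1- cells. CX3CR1+ cells had 3.74%, 3.85% and 4.29%, and TILs 2.89%, 3.14% and 4.34%. All 6 clonal libraries were below all 6 CX3CR1- libraries. The difference was -1.84 points (SD 0.63), with an exact p of 0.00926, the smallest possible, and an adjusted p of 0.0556. CX3CR1+ cells alone differed from CX3CR1- cells by -1.59 points (SD 0.39, exact p = 0.037, adjusted p = 0.0889) and TILs from spleen by -1.56 points (SD 0.75, exact p = 0.0313, adjusted p = 0.075). A lower template share in clonal than in CX3CR1- populations was not particular to TCRBJ02-04. TCRBJ01-01 differed by -2.73 points (SD 1.22), with the same exact p of 0.00926 and adjusted p of 0.0556. TCRBJ01-02 (-1.78 points, exact p = 0.0185) and TCRBJ01-04 (-1.07 points, exact p = 0.0278) were also lower. TCRBJ02-01 was higher (7.57 points, exact p = 0.037).

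With the 10 most abundant rearrangements of each library left out, these TCRBJ02-04 differences shrank to -0.46 (exact p = 0.120), -0.42 (exact p = 0.296) and -0.37 points (exact p = 0.297). With a minimum of 2 templates their direction turned, to 2.11, 2.56 and 0.81 points higher. For the templates, 41.7%, 41.7% and 50% of J genes had an exact p under 0.05 in the 3 contrasts. For TCRBJ02-02 the differences were 1.03 (SD 2.50, exact p = 0.370), -0.15 (SD 2.06, exact p = 0.704) and 2.26 points (SD 2.26, exact p = 0.0469, adjusted p = 0.0938). For TCRBJ02-03 they were -0.16 (SD 0.26, exact p = 0.944), 1.76 (SD 2.23, exact p = 0.111) and -2.66 points (SD 3.49, exact p = 0.0938). No template difference of the 3 genes passed after adjustment.

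**Figure D3:**
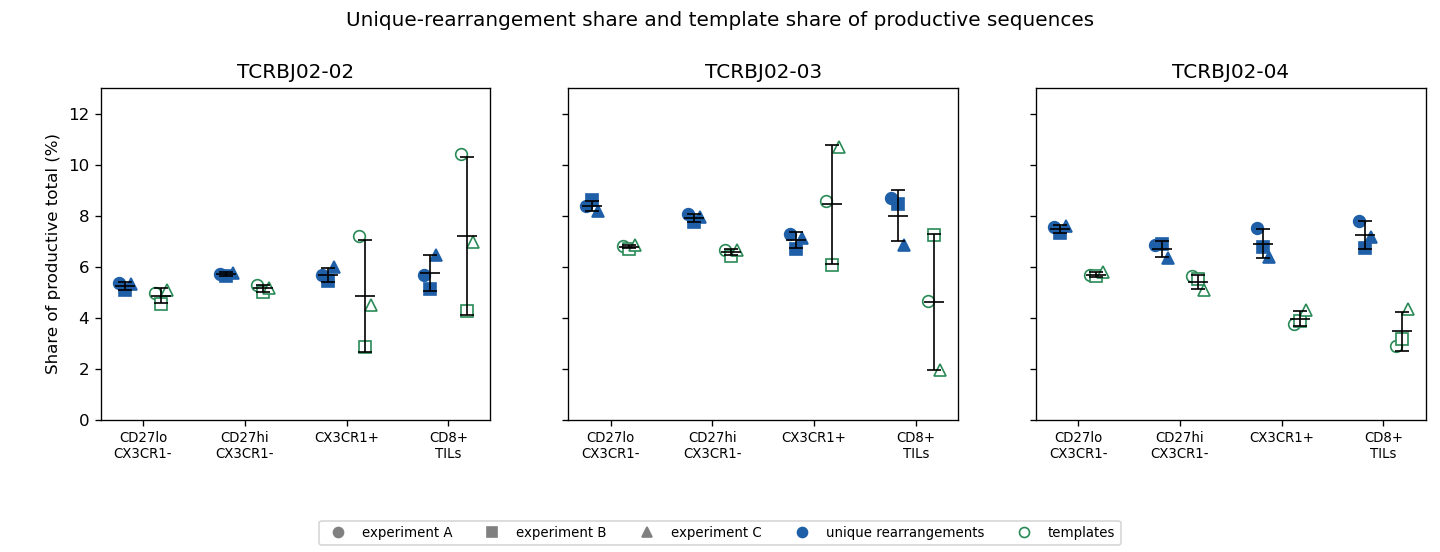
Share of productive templates and of productive unique rearrangements (%, y axis) held by each of the 3 J genes, by group (x axis), with one point per library and the mean and SD of 3 libraries as bars. For TCRBJ02-04 the template shares of the 6 CX3CR1+ and TIL libraries lie between 2.89% and 4.34%, below those of the 6 CX3CR1- libraries.

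In the CX3CR1- libraries, where large clones were rare, the template share of each gene was below its unique share. The ratio of template to unique share was 0.915 ± 0.027 (SD, n = 6) for TCRBJ02-02, 0.820 ± 0.022 for TCRBJ02-03 and 0.784 ± 0.029 for TCRBJ02-04, against 1.40 for TCRBJ02-07. TCRBJ02-01 (0.860) and TCRBJ02-05 (0.815) also had ratios below 1. Out-of-frame rearrangements gave nearly the same order, with 0.944, 0.848, 0.810 and 1.38. Mean templates per productive rearrangement were 1.23, 1.10 and 1.06 for the 3 genes and 1.89 for TCRBJ02-07.

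**Figure D4:**
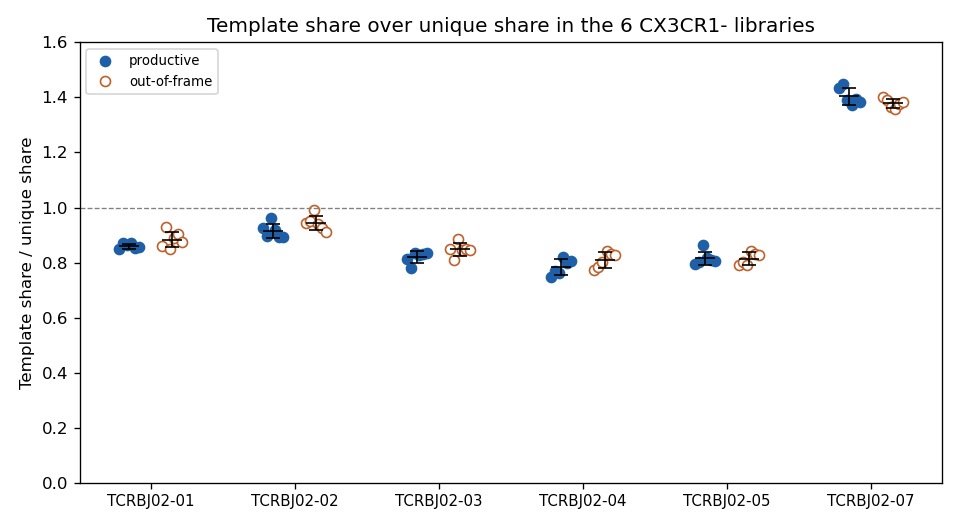
Ratio of the share of templates to the share of unique rearrangements (y axis, 1 meaning equal shares) for the J genes of the second cluster (x axis), in the 6 CX3CR1- libraries, for productive and out-of-frame rearrangements, with one point per library and mean and SD as bars. TCRBJ02-04 has a mean of 0.784 and TCRBJ02-07 of 1.40 in productive rearrangements.

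Expanded clones were taken as the 100 most abundant productive rearrangements of each library. TCRBJ02-02 supplied 6, 4 and 8 of them in CD27lo CX3CR1- cells, 2, 1 and 1 in CD27hi CX3CR1- cells, 8, 4 and 6 in CX3CR1+ cells and 8, 2 and 7 in TILs. TCRBJ02-03 supplied 5, 2 and 6 in CD27lo CX3CR1- cells, 4, 1 and 6 in CD27hi CX3CR1- cells, 9, 13 and 5 in CX3CR1+ cells and 7, 6 and 1 in TILs. TCRBJ02-04 supplied 1, 4 and 3 in CD27lo CX3CR1- cells, 0, 0 and 1 in CD27hi CX3CR1- cells, 5, 3 and 4 in CX3CR1+ cells and 4, 4 and 6 in TILs. The CD27hi CX3CR1- libraries had the fewest members of each gene among their most abundant sequences, although not in every experiment for TCRBJ02-03. TCRBJ02-01 (mean 3.67 of 100) and TCRBJ02-05 (1.67) were also lowest there, whereas TCRBJ02-07 supplied 69.3 of 100 in CD27hi CX3CR1-, 41.0 in CD27lo CX3CR1-, 25.3 in CX3CR1+ cells and 32.3 in TILs. Because the counts sum to 100 in each library, fewer of one gene means more of the others.

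Clonal minus CX3CR1- populations gave 2.83 of 100 for TCRBJ02-04 (SD 1.26, exact p = 0.037, adjusted p = 0.139 over J genes), 2.17 for TCRBJ02-02 (exact p = 0.213) and 2.83 for TCRBJ02-03 (exact p = 0.231). Of the J genes 33.3% had an exact p under 0.05, and none passed after adjustment. The comparison had different depths on its 2 sides. The sequence at rank 100 had 4 or 5 templates in CX3CR1- libraries and was tied with others there, but 69 to 181 templates in CX3CR1+ cells and 6, 16 and 31 in TILs. The part of this depth in the difference was not tested.

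In TILs the expanded clones held most templates of TCRBJ02-02, at 83.1%, 66.0% and 71.7% of all the gene had in the respective experiments. A single clone held 67.8% and 61.1% of them in experiments A and B and 28.3% in experiment C. For TCRBJ02-03 the expanded clones of CX3CR1+ cells held 66.7%, 65.6% and 77.3% of its templates, and those of TILs 47.3%, 74.1% and 16.2%. For TCRBJ02-04 the shares were 29.6%, 43.6% and 44.8% in CX3CR1+ cells and 30.6%, 56.6% and 69.8% in TILs. In the CX3CR1- libraries none of the 3 genes had more than 6.09% of its templates in such clones.

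The rearrangements behind these values are shown for the CDR3s found among the most abundant of more than 1 experiment and for the largest clone. Each sequence starts at the first base of the CDR3 and stops 1 codon before its end, and capitals mark bases of the J gene. With TCRBJ02-02, a 15-residue CDR3 with TCRBV17-01 was encoded by 3 nucleotide sequences among the 100 most abundant, which differed at 1 or 2 of 42 bases and at no residue, and by 4 in all libraries.
TCRBV17-01/TCRBJ02-02 i: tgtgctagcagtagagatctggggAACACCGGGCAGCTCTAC
TCRBV17-01/TCRBJ02-02 ii: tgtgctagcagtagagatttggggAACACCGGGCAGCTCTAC
TCRBV17-01/TCRBJ02-02 iii: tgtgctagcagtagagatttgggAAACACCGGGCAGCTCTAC
TCRBV13-01/TCRBJ02-02: tgtgccagcagtgggGGGCAGCTCTAC
TCRBV31-01/TCRBJ02-03 i: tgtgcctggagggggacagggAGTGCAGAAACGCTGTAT
TCRBV31-01/TCRBJ02-03 ii: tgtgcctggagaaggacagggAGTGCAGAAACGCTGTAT
TCRBV19-01/TCRBJ02-04 i: tgtgccagcagccGTCAAAACACCTTGTAC
TCRBV19-01/TCRBJ02-04 ii: tgtgccagcagtcGTCAAAACACCTTGTAC
TCRBV19-01/TCRBJ02-04 iii: tgtgccagcagtaggCAAAACACCTTGTAC

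Summed over all 4 of its sequences, the TCRBV17-01/TCRBJ02-02 CDR3 had 262, 198 and 29 templates in CX3CR1+ cells, by experiment, and 427, 326 and 3 in TILs. It was found in 11 of 12 libraries. Sequence i had 417 templates in TILs and 194 in CX3CR1+ cells of experiment A, and sequence ii had 322 and 196 in experiment B, so that different nucleotide sequences for the same residues dominated TCRBJ02-02 in TILs of the 2 experiments. Sequence iii had 31 templates in CX3CR1+ cells and 10 in TILs of experiment A.

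The TCRBV13-01/TCRBJ02-02 sequence, which had no called D gene and no N base, was the same nucleotide sequence in both experiments. It had 674 templates in CX3CR1+ cells and 41 in TILs of experiment A, and 9 and 26 in experiment B. The TCRBV19-01/TCRBJ02-04 CDR3 of 11 residues had 4 sequences in all libraries, and the 3 among the 100 most abundant differed at 1 to 3 of 30 bases and at no residue. Sequence i had 411 templates in CX3CR1+ cells of experiment B, ii had 76 there and 132 in the TILs of that experiment, and iii had 92 in CX3CR1+ cells and 25 in TILs of experiment A.

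The largest clone with any of the 3 genes was TCRBV31-01/TCRBJ02-03 i, with 7191 templates in CX3CR1+ cells of experiment C, where it ranked 1st of all productive rearrangements. It had 61 templates in the matching TILs and 19 and 27 in the matching CD27lo and CD27hi CX3CR1- cells. TCRBV31-01/TCRBJ02-03 ii, with 258 templates in CX3CR1+ cells and 4 in TILs of experiment B, differed from it at 2 of 39 bases and at 1 of 14 residues. They were not the same CDR3.

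Over all 3 genes 28 rearrangements met the naming rule, 11 with TCRBJ02-02, 10 with TCRBJ02-03 and 7 with TCRBJ02-04, and they used 11 V genes. Of these, 19 were among the 100 most abundant of both the CX3CR1+ and the TIL library of one experiment, 7 with TCRBJ02-02, 7 with TCRBJ02-03 and 5 with TCRBJ02-04. Because this was itself a way to meet the naming rule, the count follows from the selection. Over all J genes 23, 40 and 39 of the 100 most abundant TIL rearrangements were also among those of CX3CR1+ cells, by experiment. At least 1 template was found in a CX3CR1- library of any experiment, not only the matching one, for 25 of the 28, at most 27 templates in any. The same count was not made over all J genes. Other large clones were TCRBV05-01/TCRBJ02-03 with 979 templates in CX3CR1+ cells of experiment A and none in its TILs, which allows up to 0.0509% of the productive templates there, and TCRBV03-01/TCRBJ02-04 with 853 in CX3CR1+ cells and 59 in TILs of experiment C.

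**Figure D5:**
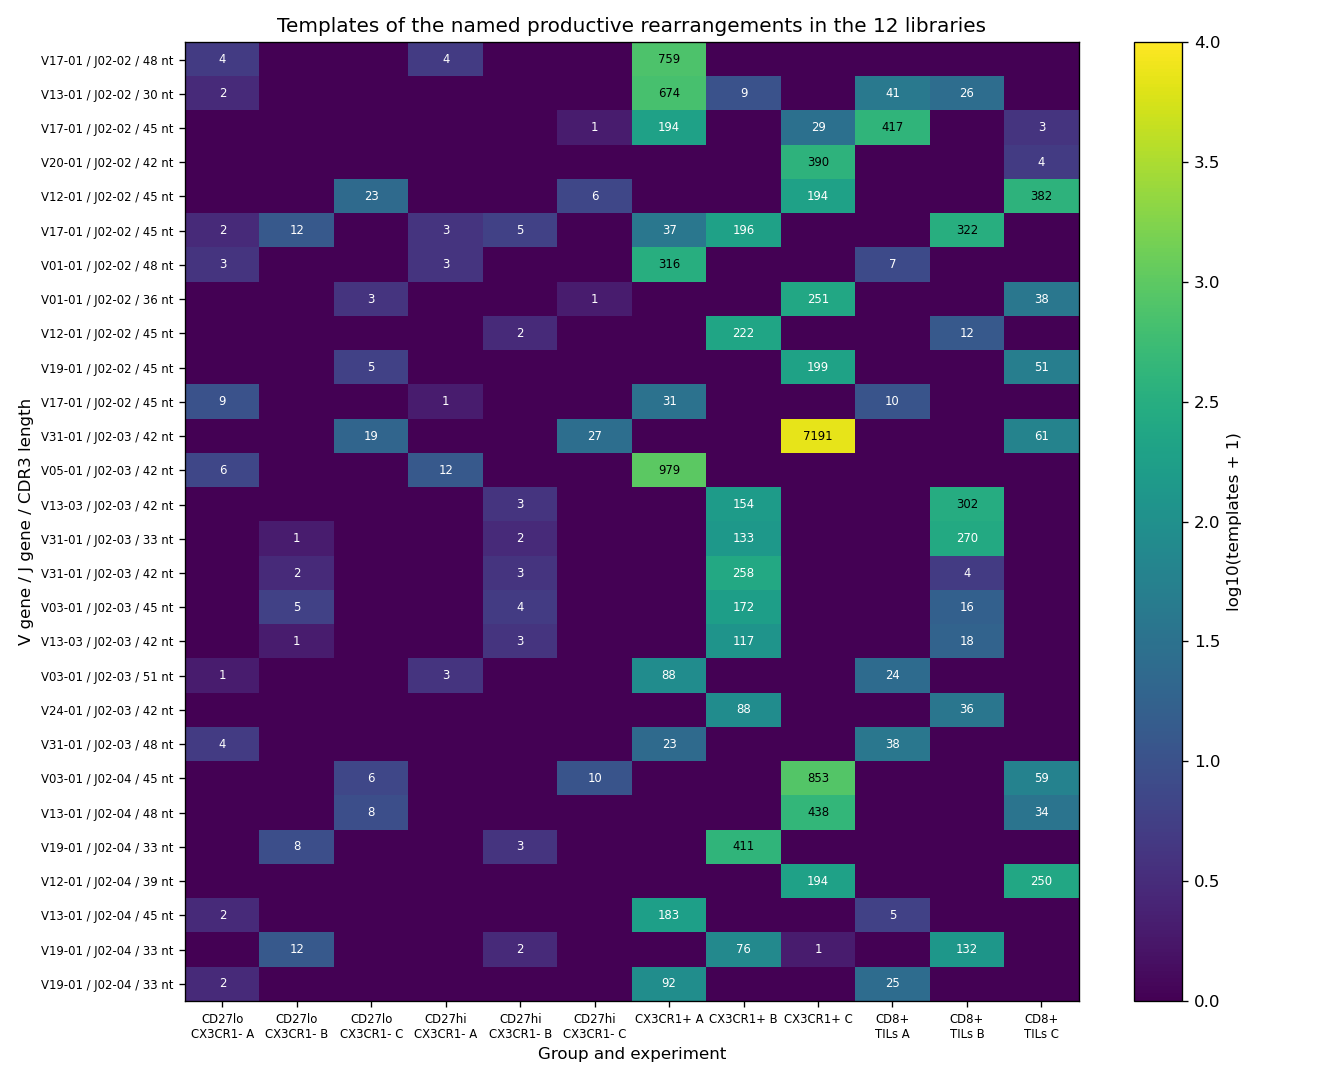
Heat map of the templates of the 28 named rearrangements (y axis, by V gene, J gene and CDR3 length) in the 12 libraries (x axis), coloured on a log10 scale of templates plus 1, with the count printed in each cell above 0. The largest is the TCRBV31-01/TCRBJ02-03 clone with 7191 templates in CX3CR1+ cells and 61 in TILs.

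Of the 100 most abundant TIL rearrangements, those with TCRBJ02-02 were also found in the CX3CR1+ cells of the same experiment in 5 of 8, 2 of 2 and 7 of 7 cases in experiments A, B and C. For TCRBJ02-03 the counts were 5 of 7, 6 of 6 and 1 of 1, and for TCRBJ02-04 2 of 4, 3 of 4 and 5 of 6. All J genes together gave 66, 91 and 92 of 100. Over all TIL rearrangements, those with TCRBJ02-02 were found in CX3CR1+ cells in 32.2% ± 16.3 (SD, n = 3 experiments), those with TCRBJ02-03 in 32.6% ± 13.6 and those with TCRBJ02-04 in 29.2% ± 16.8, against 34.9% ± 13.3 over all J genes. The share found in CD27hi CX3CR1- cells was 10.2%, 10.6% and 11.1%, and in CD27lo CX3CR1- cells 8.47%, 7.03% and 9.18%. The 3 genes differed from each other by less than the spread between experiments.

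Between experiments, 1.17%, 1.80% and 1.29% of the CD27hi CX3CR1- rearrangements with TCRBJ02-02, TCRBJ02-03 and TCRBJ02-04 were found again in the CD27hi CX3CR1- library of another experiment. All J genes gave 2.34% and TCRBJ02-07 gave 3.42%. As a description over 12 libraries that share mice within experiments, the J gene whose productive unique share varied most like that of TCRBJ02-02 was TCRBJ02-01 (Pearson r = 0.38). For TCRBJ02-03 it was TCRBJ02-05 (r = 0.61), and for TCRBJ02-04 it was also TCRBJ02-05 (r = 0.76).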

How the data were processed

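TCR beta rearrangements were sequenced from genomic DNA of 12 libraries with the ImmunoSEQ assay at survey level on a NextSeq instrument. The deposited tables, one per library, give each distinct rearrangement with its count of templates, the V, D and J names, the frame status and the lengths of trimming and insertion in nucleotides (another unit), all assigned by the authors' platform. The submitters' processing notes name mm10, and the version of the platform's software is not given in the sources used here. Members and lists were chosen with earlier results of these data known.

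Shares were computed over productive rearrangements (or templates) with a resolved J gene, and rearrangements with an unresolved J name stayed out (298 between TCRBJ02-05 and TCRBJ02-07, 7 between TCRBJ01-06 and TCRBJ02-02). Groups were compared by exact two-sided permutation within experiments, over 216, 27 and 64 arrangements, with Benjamini-Hochberg adjustment over 12 J genes. Counts of rearrangements per J gene and V-J pair were fitted with edgeR 4.0.16 (R 4.3.3), with library totals as the offset. The experiment was the block between groups, and the library was the block for productive against out-of-frame pairs. DESeq2 1.42.0 was an alternative. Scripts used Python 3.11.15, numpy 2.4.6, pandas 2.3.3, scipy 1.17.1 and matplotlib 3.10.9, and were tested on simulated data with known changes. Wilson intervals were at 95%, and a count of 0 allows 3 templates. Both cover counting error only. Productive templates ranged from 5893 to 113660 per library, which sets the precision. The labels give each experiment's groups a shared code, and same-experiment libraries shared more rearrangements than others, so the experiment was the block. The study describes its experiments as independent, and libraries of one experiment share mice.

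Named items were the 3 members, TCRBJ02-01, TCRBJ02-05 and TCRBJ02-07 where they differed, the most similar J gene, the 5 leading V partners, up to 5 called V-J pairs per member and contrast, the most abundant rearrangement per member in each CX3CR1+ and TIL library, those among the 100 most abundant of both libraries of an experiment, and CDR3s found there in more than 1 experiment. Other J genes were named where a difference of a member was set beside theirs. Alternatives were a minimum of 2 templates, equal depth, amino acid clonotypes, other denominators, top clones left out, TMM normalization, no block, and each experiment left out.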

Additional observations from a re-analysis of the deposited data

Results flagged for a closer look

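The gap between the productive and the out-of-frame unique share of TCRBJ02-03 differed between CX3CR1+ and CX3CR1- cells by -1.25 points, with values of -1.48, -1.95 and -0.33 in experiments A, B and C. It is listed because the difference between the groups was itself tested, by exact permutation within experiments (p = 0.037, the smallest possible). After adjustment over J genes the p was 0.222.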

How the results depend on the processing

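Of 243 alternative values for 33 results on J gene shares, 177 kept direction and side of the threshold, 30 reversed, 29 were weaker and 7 stronger. For the named V-J pairs 285 of 324 held and 39 were weaker. TIL libraries, with 77 to 155 productive rearrangements per gene, limit all TIL values. With an experiment left out the smallest exact p of the permutations within experiments rises, so those calls are lost by construction. This does not hold for the sign-flip tests over libraries or for the edgeR fits. A threshold of 0.1% of templates gave no share, since 2 CD27hi CX3CR1- libraries had no such clone. Causes were not tested.

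With a minimum of 2 templates, unique shares of clonal against CX3CR1- populations became 1.37, 2.91 and 3.28 points for TCRBJ02-02, TCRBJ02-03 and TCRBJ02-04, and those of CX3CR1+ cells 1.35, 2.54 and 3.90. Template shares became 3.88 (TCRBJ02-03) and 2.11 (TCRBJ02-04) for clonal populations, 1.11, 6.06 and 2.56 for CX3CR1+ cells, and 0.81 (TCRBJ02-04) for TILs. The productive minus out-of-frame difference of TCRBJ02-02 became -0.31, and its contrasts 0.30, 0.021 and 0.56. Those of TCRBJ02-04 became -0.13 and -0.29. This minimum need not act alike on the groups. Productive rearrangements of the 3 genes averaged 1.06 to 1.23 templates in CX3CR1- libraries and 3.86 to 14.5 in single CX3CR1+ libraries. At equal depth, TCRBJ02-02 (0.52) and TCRBJ02-04 (0.39) changed for clonal populations, and TCRBJ02-04 (0.042) for CX3CR1+ cells. The TCRBJ02-03 difference of CX3CR1+ cells was then -0.81 and no longer had an exact p under 0.05. Amino acid clonotypes gave 0.032 for TCRBJ02-04. By edgeR on J counts TCRBJ02-03 was called in clonal populations (log2 -0.13, adjusted p = 0.0249).

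Without the most abundant rearrangement the TCRBJ02-02 template difference of CX3CR1+ cells was 0.25, and without the 10 most abundant 1.21, with -0.49 for TILs. For TCRBJ02-04 the latter gave -0.46, -0.42 and -0.37. With all rearrangements as denominator the TCRBJ02-03 gap of TILs was 0.011, and with stop codons added the TCRBJ02-04 difference was -0.42. The 50 most abundant gave 2.33 for TCRBJ02-04.

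Without the replicate block, the TCRBJ02-02 template difference of TILs (2.26) had an exact p of 0.0773. With 1 value per experiment as the block, the productive minus out-of-frame differences of -0.69 and -0.66 had an exact p of 0.25. The block changed no other call.

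TMM normalization turned the CD27lo against CD27hi value of TCRBJ02-03 to -0.0058 (log2). With each experiment left out, it ranged from 0.049 to 0.10, and that of TCRBJ02-02 from -0.13 to -0.11. Unique-share differences then ranged for clonal populations from -0.27 to 0.14 (TCRBJ02-04), for CX3CR1+ cells from -1.21 to -0.93 (TCRBJ02-03) and from -0.45 to 0.0048 (TCRBJ02-04), and for TILs from -0.086 to 0.44 (TCRBJ02-02) and from -0.065 to 0.79 (TCRBJ02-03). Template differences ranged for clonal populations from -0.31 to 2.16 (TCRBJ02-02) and from -2.20 to -1.60 (TCRBJ02-04), for CX3CR1+ cells from -1.27 to 0.74 and from -1.81 to -1.43, and for TILs from 1.07 to 3.33 and from -1.99 to -1.28. Productive minus out-of-frame differences ranged from -0.76 to -0.58 (TCRBJ02-03) and from -0.40 to -0.28 (TCRBJ02-04), and the expanded TCRBJ02-04 difference from 2.25 to 3.50 of 100. Called V-J pairs numbered 2 to 3 for clonal populations, 0 to 1 for CX3CR1+ cells, fewest without experiment C, and 0 for TILs, where DESeq2 called 1.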
